A study of Rattus norvegicus with 8 samples.

Results

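The transcripts of 9 centromere protein genes (Cenpa, Cenpf, Cenpi, Cenpm, Cenpn, Cenps, Cenpt, Cenpu and Cenpw) were examined in the kidney that remained after unilateral nephrectomy. They were chosen by symbol, with the difference between the operated groups in these data already known, out of 35237 genes or accessions on the array. The 9 genes were read by 13 probes, all of which passed the filter on dim probes, as did 19865 genes in all. Because the choice followed the contrast, the differences of these genes between the groups are described here and not tested. The nephrectomized group held 4 males of the inbred rat strain F344/NSlc at 10 weeks of age that had lost the other kidney, and the sham group held 4 males of the same strain and age after a sham operation. The right kidney was taken in both groups. The series text states an interval of 2 days, whereas the source label has day 2 for nephrectomized and day 1 for sham rats, so the sham interval is not settled, and operation and day cannot be told apart in any difference below. The series text gives n = 4, the labels carry only sample numbers, and the spread between arrays may be partly technical.

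Centromere proteins mark the site on each chromosome where the spindle attaches. CENP-A replaces ordinary histone H3 in centromeric nucleosomes, the constitutive centromere-associated network (CCAN) binds those nucleosomes in several subcomplexes, and the outer kinetochore on top of it grips the microtubules. Most cells of the adult kidney are out of the cell cycle, and loss of the partner kidney is known to make the remaining one grow. Values below are log2 of the processed spot intensity minus the 75th percentile of the same array, so each describes mRNA relative to the other mRNA of the sample. Levels of different probes cannot be set against each other. In whole tissue, more cells of a type and more RNA per cell cannot be told apart.

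Each of the 8 arrays had 54.8 to 65.5% of its 41012 gene probes clearly above background, and saturation affected none. The number of arrays limits the precision. Sham rat 1 stood apart on the second principal component (21.6% of the variance), at 37.56 against -17.38 to 7.21 for the other arrays. Markers of the proximal tubule (6 of 6), loop and distal tubule (4 of 4 on the array), collecting duct (5 of 5) and podocyte (5 of 5) were measured, as the label kidney requires, and 0 of these 20 passed in either direction (limma, adjusted p under 0.05). None of the measured markers of endothelium (5 of 5), mesenchyme (4 of 5), macrophages, T cells or red cells (2 of 4) passed either. The endothelial list summed to 26.4 to 28.3 in nephrectomized and 21.7 to 27.9 in sham kidneys, in units of the array's 75th percentile. The mesenchymal list summed to 26.2 to 30.6 in nephrectomized and 24.5 to 32.9 in sham kidneys, and the red cell list to 2.04 to 4.85 in nephrectomized and 1.5 to 13.5 in sham kidneys. For macrophages 5 of 6 markers were measured, with summed levels of 23.3 to 29.1 in nephrectomized and 21.7 to 25.9 in sham kidneys, and Itgam was well above background on no array. For T cells 2 of 5 were measured (0.939 to 1.12 in nephrectomized and 0.986 to 1.16 in sham kidneys), while Cd4 and Cd2 were well above background on no array and Cd3e on 1 nephrectomized array. The B cell marker Cd79b did not pass the filter on dim probes. Of the genes on the adrenal list Cyp17a1 alone was measured. It was dim, well above background on 4 of 4 nephrectomized and 3 of 4 sham arrays, and higher after nephrectomy (log2 difference 0.54, SE 0.10, adjusted p = 0.0222 by limma). Cyp11b1 and Cyp11b2, the enzymes that define the adrenal cortex, were well above background on no array, so Cyp17a1 is not read as a sign of adrenal tissue. The summed level of the adrenal list was 0.122 to 0.136 in nephrectomized and 0.0849 to 0.104 in sham kidneys, and its part in the results was not tested.

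All 9 Cenp transcripts were more abundant in the residual kidney after nephrectomy, and for each the 4 nephrectomized rats lay above the 4 sham rats. Across all genes 7.56% had such a separation upward. Relative to the sham mean of each gene, the median over the 9 genes was 1.61, 1.50, 1.95 and 1.92 log2 units in nephrectomized rats 1 to 4, against 0.02, 0.06, -0.09 and -0.03 in sham rats 1 to 4. The median log2 difference was 1.81 (a ratio of 3.51), where the median over all genes was 0.00. For Cenpa and Cenpi, not well above background on any sham array, the processed intensity gives only a lower bound. It applies to that scale alone. The other background correction described below gave both a smaller difference, but it adds a constant that shrinks the ratios of dim probes, so it does not test the bound. With both at their bound the median was 1.65. Raising the sham values of Cenpm and Cenpu in the same way to the lowest value well above background on their arrays, a choice made after the values were seen, gave a median of 1.47. In the limma fit across all genes, 9 of 9 passed an adjusted p of 0.05 upward and 0 downward, where 2.57% of all genes passed upward and 1.02% downward. At least 2-fold differences were measured for 7 of the 9, against 1.26% of all genes, although the bound of Cenpi is below 2-fold. Because the genes were chosen with this contrast known, nothing is read from these counts. The size was not uniform: Cenpn and Cenps, at 1.45- and 1.74-fold, had the smallest measured differences, although the bound of Cenpi does not separate it from Cenps.

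**Figure D1:**
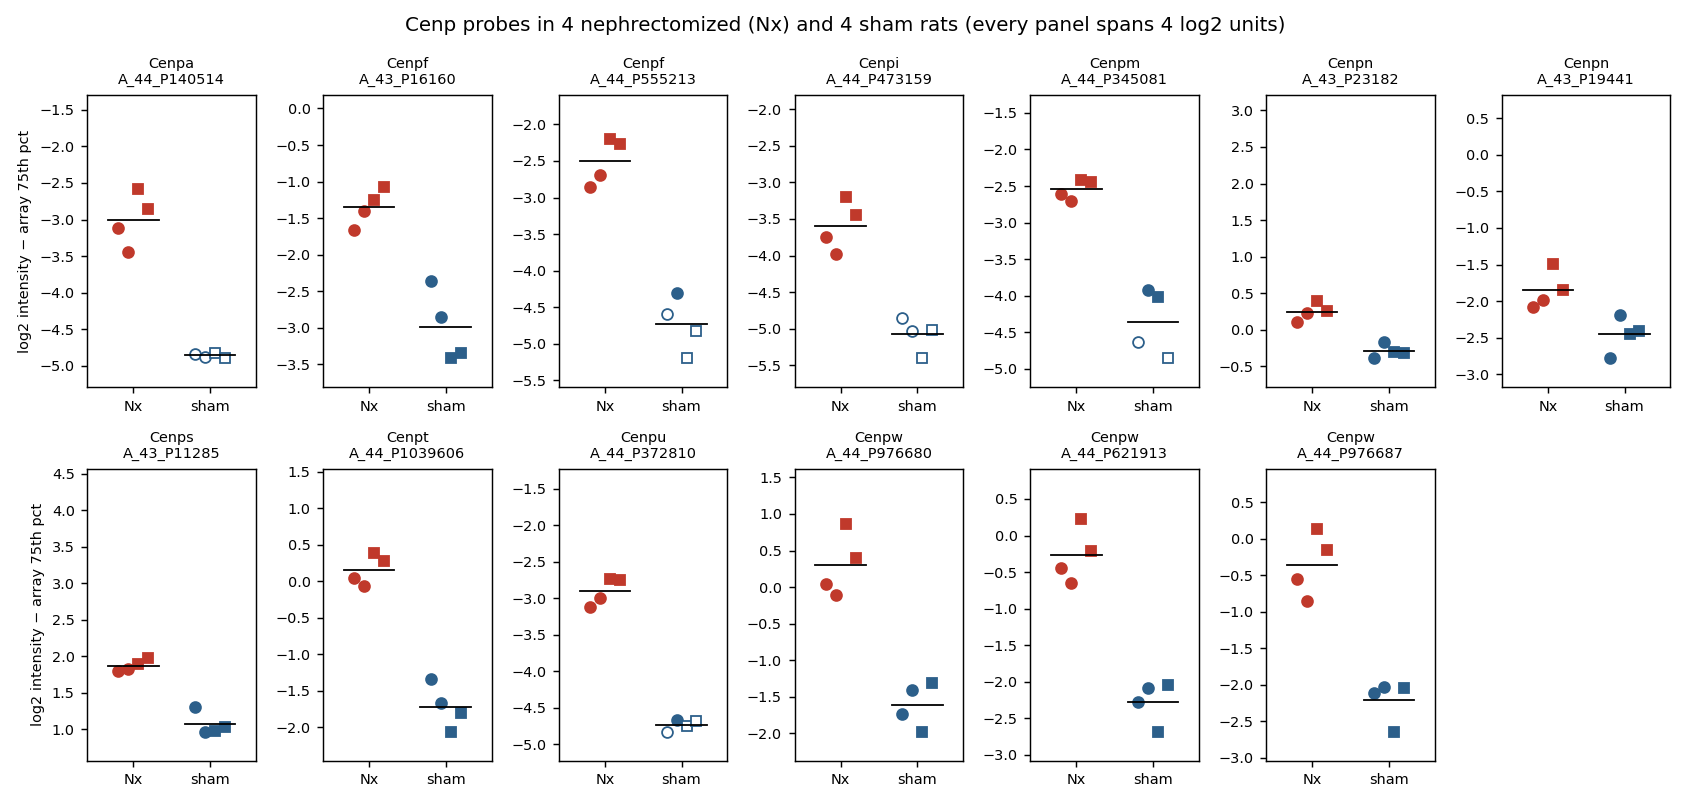
Each panel is a probe and each point a rat, with nephrectomized (Nx, red) left of sham (blue); the y axis is the log2 level relative to the 75th percentile of that array. Circles are slide 1, squares slide 2, open symbols are spots not well above background, and black bars are group means. All 13 probes are separated between the groups, and the sham points of Cenpa and Cenpi are all open.

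Since the 9 transcripts lay higher together, their promoters are shown for the short elements that many genes of cell division carry. The cell cycle genes homology region (CHR), bound by the MuvB complex with B-Myb or with pocket proteins, reads TTTGAA or TTCGAA, and the CCAAT box, bound by NF-Y, often lies upstream of it. Promoter windows from RefSeq (GRCr8), which run from 250 bases before to 50 bases after the annotated start, were found for 8 of the 9 genes. Searched on both strands, 6 of 8 windows held a CHR word (Cenpa, Cenpf, Cenpi, Cenpm, Cenpn and Cenpw), against 18.5% of 21851 windows of protein-coding genes. CCAAT was present in 3 of 8 (Cenpa, Cenpf and Cenpn), against 38% of all windows. An E2F word, TTTCCCGC or TTTGGCGC, was present in 1 of 8, Cenps, against 1.88% of all windows. A match of letters shows no binding. The 4 windows printed here cover both arrangements, a CHR word upstream of the start in Cenpa and at the start in Cenpf, Cenpm and Cenpw. Capitals mark the CHR words and CCAAT boxes on either strand (TTCAAA and ATTGG are their reverse complements), and each runs 5′ to 3′ along the gene's strand.
Cenpa (GRCr8 chr6:31431503-31431802, minus strand): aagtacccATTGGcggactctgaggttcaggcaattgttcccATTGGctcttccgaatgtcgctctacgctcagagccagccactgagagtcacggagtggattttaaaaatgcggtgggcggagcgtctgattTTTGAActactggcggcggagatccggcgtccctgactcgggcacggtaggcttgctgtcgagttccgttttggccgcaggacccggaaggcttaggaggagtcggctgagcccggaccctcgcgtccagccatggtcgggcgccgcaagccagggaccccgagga
Cenpf (GRCr8 chr13:103760837-103761136, minus strand): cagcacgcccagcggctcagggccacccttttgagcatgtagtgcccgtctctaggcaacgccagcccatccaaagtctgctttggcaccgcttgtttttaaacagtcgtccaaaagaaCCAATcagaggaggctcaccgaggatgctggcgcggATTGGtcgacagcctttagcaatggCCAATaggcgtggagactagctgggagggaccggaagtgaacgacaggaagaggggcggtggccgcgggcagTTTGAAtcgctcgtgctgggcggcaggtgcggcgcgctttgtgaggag
Cenpm (GRCr8 chr7:115639318-115639617, minus strand): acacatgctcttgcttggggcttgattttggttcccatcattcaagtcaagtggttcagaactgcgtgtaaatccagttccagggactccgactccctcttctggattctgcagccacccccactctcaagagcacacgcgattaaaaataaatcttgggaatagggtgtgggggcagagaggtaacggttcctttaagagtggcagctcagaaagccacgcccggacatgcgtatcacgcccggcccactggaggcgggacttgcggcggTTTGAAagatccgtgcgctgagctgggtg
Cenpw (GRCr8 chr1:29353720-29354019, plus strand): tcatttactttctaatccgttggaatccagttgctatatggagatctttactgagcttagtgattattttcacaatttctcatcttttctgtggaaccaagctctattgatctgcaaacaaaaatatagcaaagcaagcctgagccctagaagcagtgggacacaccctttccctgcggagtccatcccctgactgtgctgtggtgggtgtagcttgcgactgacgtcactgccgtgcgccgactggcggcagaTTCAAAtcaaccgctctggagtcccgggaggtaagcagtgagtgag
In Cenpf the CHR word begins 2 bases after the start and follows 3 CCAAT boxes, which begin 131, 95 and 70 bases before it. The words of Cenpm and Cenpw begin 21 and 4 bases after their starts, with no CCAAT in the window. That of Cenpa begins 116 bases before the start, with CCAAT boxes 242 and 208 bases before it. In Cenpn, the gene with the smallest difference, TTCGAA begins 20 bases after the start and CCAAT 11 bases after it. The word of Cenpi begins 49 bases before its start. Cenpu, with a log2 difference of 1.83, held none of the 3 elements.

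**Figure D2:**
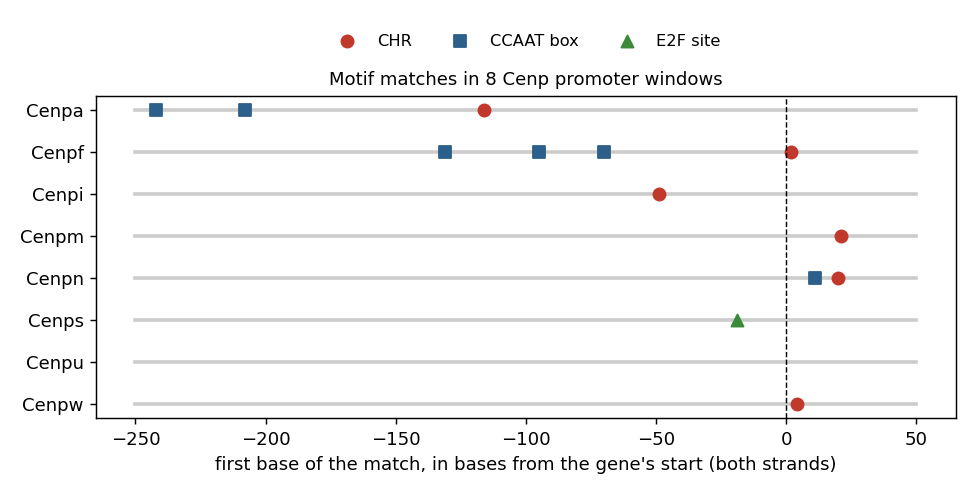
Motif matches in the promoter windows of 8 Cenp genes; the x axis is the first base of a match in bases from the gene's start (dashed line). Red circles are CHR words, blue squares CCAAT boxes and the green triangle the E2F word, and CHR words of Cenpf, Cenpm, Cenpn and Cenpw lie within 21 bases after the start.

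Cenpa encodes the histone H3 variant that gives centromeric chromatin its identity. Its log2 level was -3.12, -3.45, -2.59 and -2.86 in nephrectomized rats 1 to 4 and -4.84, -4.88, -4.82 and -4.89 in sham rats 1 to 4. The probe was well above background in 4 of 4 nephrectomized and 0 of 4 sham rats, so the sham values mark a limit of detection rather than a level. On the processed intensity the transcript was at least 2.63-fold higher after nephrectomy. With the background correction described below, which adds a constant and so shrinks the ratio of a dim probe, it was 1.74-fold higher. That value does not test the bound.

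Cenpn reads the CENP-A nucleosome directly and brings its partner Cenpl with it. The brighter of its 2 probes gave 0.10, 0.22, 0.39 and 0.25 in nephrectomized rats 1 to 4 and -0.39, -0.17, -0.30 and -0.32 in sham rats 1 to 4. The groups did not overlap, and the gap between the lowest nephrectomized and the highest sham rat was small beside that of the other members. The log2 difference was 0.54 (SE 0.08, 95% interval 0.36 to 0.72), and the second probe gave 0.60 (SE 0.16). Both probes were well above background on all 8 arrays.

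Cenpi and Cenpm belong to the H-I-K-M subcomplex at the heart of the CCAN. Cenpi, which the gene table also lists as Fshprh1, measured -3.74, -3.99, -3.20 and -3.45 in nephrectomized rats 1 to 4 and -4.85, -5.03, -5.40 and -5.02 in sham rats 1 to 4. It was well above background in 4 of 4 nephrectomized and 0 of 4 sham rats. On the processed intensity it was at least 1.74-fold higher, and with the background correction described below 1.42-fold. Cenpm measured -2.61, -2.71, -2.41 and -2.45 in nephrectomized rats 1 to 4, which lay close together (SD 0.14, n = 4). In sham rats 1 to 4 it measured -4.64, -3.92, -4.02 and -4.85 (SD 0.46, n = 4), with only rats 2 and 3 well above background. The log2 difference of Cenpm was 1.81 (SE 0.21, 95% interval 1.34 to 2.28), a 3.51-fold ratio, or 1.47 (2.77-fold) with the sham values raised to the detection limit of their arrays.

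Cenpu is part of the O-P-Q-R-U subcomplex, which serves as a landing site for the mitotic kinase Plk1. It measured -3.12, -3.00, -2.74 and -2.75 in nephrectomized rats 1 to 4 and -4.83, -4.67, -4.75 and -4.68 in sham rats 1 to 4. The log2 difference was 1.83 (SE 0.10, 95% interval 1.61 to 2.05), or 3.55-fold. Only sham rat 2 was well above background, so this size rests mostly on sham values near the limit of detection, which had an SD of 0.07 (n = 4). With the sham values raised to the detection limit of their arrays the difference was 1.47 (2.76-fold), below that interval.

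Cenpt, Cenpw and Cenps carry histone folds and form, with CENP-X, a nucleosome-like particle that links DNA to the outer kinetochore. Cenpt measured 0.04, -0.07, 0.38 and 0.28 in nephrectomized rats 1 to 4 and -1.34, -1.66, -2.06 and -1.81 in sham rats 1 to 4. Its log2 difference was 1.87 (SE 0.16, 95% interval 1.51 to 2.24), or 3.67-fold, and it was well above background in all 8 rats. Cenpw measured 0.04, -0.11, 0.86 and 0.39 on its brightest probe in nephrectomized rats 1 to 4 and -1.74, -1.41, -1.98 and -1.31 in sham rats 1 to 4. The difference was 1.90 (SE 0.23, 95% interval 1.39 to 2.42), or 3.74-fold. Its other probes gave 2.00 (SE 0.20) and 1.85 (SE 0.22), and on each of the 3 probes nephrectomized rat 3 was the highest and sham rat 3 the lowest. The gene table also lists a pseudogene Cenpt-ps1 and a gene Cenpwl1, and whether their RNA reaches these probes was not tested.

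Cenps differed from its partners in size. It also works outside the kinetochore, with CENP-X and the helicase FANCM in the repair of stalled replication forks. The level was 1.80, 1.82, 1.89 and 1.98 in nephrectomized rats 1 to 4 and 1.30, 0.97, 0.98 and 1.03 in sham rats 1 to 4. Sham rat 1 lay above the other sham rats and below every nephrectomized rat. The log2 difference was 0.80 (SE 0.09, 95% interval 0.60 to 1.01), or 1.74-fold, and its interval did not reach those of Cenpt and Cenpw.

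Cenpf is not a CCAN subunit but a large protein of the kinetochore's outermost layer, the corona, made late in the cell cycle and then degraded. On the brighter probe it measured -1.67, -1.40, -1.25 and -1.08 in nephrectomized rats 1 to 4 and -2.36, -2.86, -3.41 and -3.35 in sham rats 1 to 4. Sham rats 1 and 2, both on slide 1, were higher than rats 3 and 4. The log2 difference was 1.65 (SE 0.24, 95% interval 1.11 to 2.19), or 3.13-fold. A second probe, well above background in 4 of 4 nephrectomized rats and 1 of 4 sham rats, gave 2.22 (SE 0.21), or 4.67-fold. With the sham values raised to the detection limit it gave 1.77, and after the background correction described below 0.95, against 1.14 for the brighter probe, so no difference in size between the probes is drawn from these values.

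**Figure D3:**
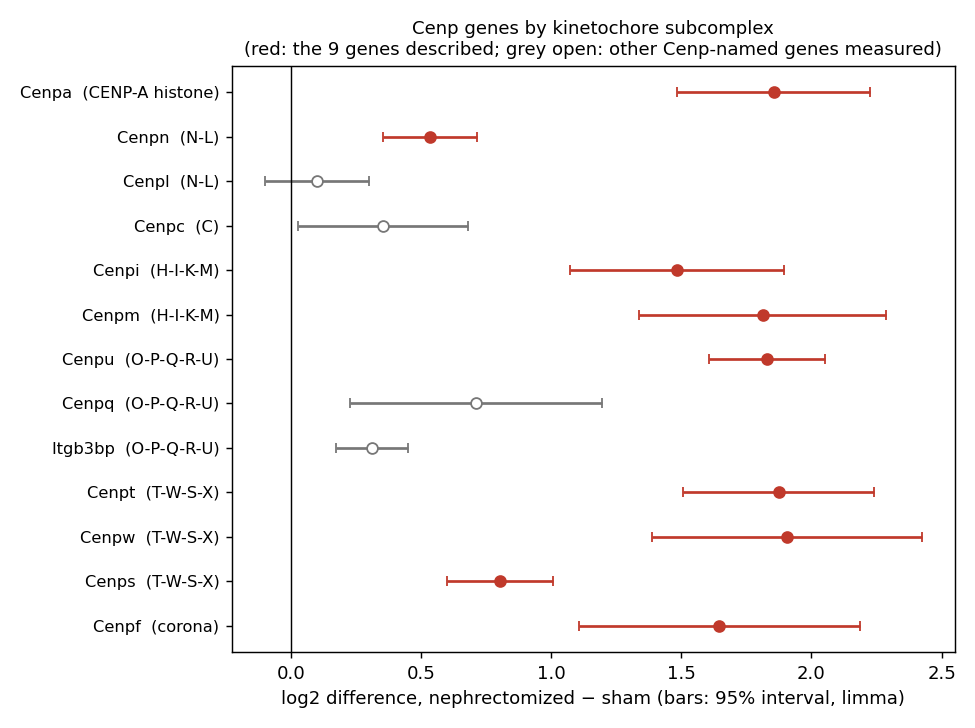
Log2 difference (x axis, nephrectomized minus sham, 95% interval from limma, 4 rats per group) of the 9 Cenp genes (red) and 4 other Cenp-named genes (grey), grouped by subcomplex on the y axis. Within the N-L and O-P-Q-R-U subcomplexes the red genes lie right of the drawn probe of their measured partners. The red genes were chosen with this contrast known, so nothing is read from that place. A second probe of Cenpq, not drawn and well above background on 1 of 4 sham arrays only, gave 1.51. Cenpa and Cenpi are measured values whose sham signal was not well above background, and that of Cenpu was so on 1 of 4 sham arrays only.

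The partners of these proteins in the CCAN were measured less completely. Of 13 other genes named for a CENP protein, 4 had a named probe, all of which passed the filter, and the other 9 were not analysed here. Itgb3bp, which encodes CENP-R, was higher after nephrectomy (log2 difference 0.31, SE 0.06, adjusted p = 0.0291 by limma), at 1.72, 1.82, 1.77 and 1.68 in nephrectomized rats 1 to 4 against 1.45, 1.37, 1.52 and 1.41 in sham rats 1 to 4. That call was lost when any single rat other than sham rat 1 was left out (adjusted p 0.057 to 0.0925 by limma). Cenpq, in the same subcomplex as Cenpu, had a log2 difference of 0.71 (SE 0.21, adjusted p = 0.121) on its brighter probe. A second probe gave 1.51 (SE 0.21, adjusted p = 0.006 when every probe was fitted). That probe was well above background in 4 of 4 nephrectomized rats and 1 of 4 sham rats. Its size therefore rests mostly on sham values near the limit of detection, and no difference between the probes is drawn. Cenpc, the scaffold that ties CENP-A to the rest of the CCAN, had a difference of 0.36 (SE 0.14, adjusted p = 0.245), with overlapping groups. Cenpl, the partner of Cenpn, had 0.10 (SE 0.09, 95% interval -0.10 to 0.30, adjusted p = 0.608). The 4 genes had a median of 0.33, and 1 of 4 passed upward.

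Genes that load CENP-A and those that build on the CCAN were taken from 8 further lists. With the other Cenp-named genes these made 80 genes, of which 48 were measured; 20 passed upward and 0 downward (limma, adjusted p under 0.05), against 3.59% of all genes in either direction. Their median log2 difference was 0.36, with 0.26 on slide 1 and 0.47 on slide 2. For CENP-A deposition, the histone chaperones Rbbp7 and Rbbp4 had log2 differences of 0.18 and 0.02 (adjusted p = 0.396 and 0.9) and did not pass. Hjurp, the chaperone that deposits CENP-A, was well above background in 1 nephrectomized and 1 sham rat and could not be compared.

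In the outer kinetochore network, which binds microtubules, 3 of 5 measured genes passed upward and the median was 1.03. Nuf2 and Spc25, subunits of the Ndc80 complex, were 3.39-fold (adjusted p = 0.00166) and 3.19-fold higher (0.00799), and Pmf1, of the Mis12 complex, 1.59-fold (0.00467). Dsn1, another Mis12 complex subunit, had a log2 difference of 1.03 (adjusted p = 0.0996), or 1.34 without sham rat 2 (adjusted p = 0.00524), and Zwint had 0.02 (adjusted p = 0.936). Among Ska complex, corona and CENP-F partner genes 4 of 8 passed upward, with a median of 0.38. Ska1 was 4.32-fold higher, Kntc1, of the complex that brings dynein to kinetochores, 3.09-fold (adjusted p = 0.00241), and Spdl1, its dynein adaptor, 1.83-fold (adjusted p = 0.0172). The count fell to 2 without sham rat 3 or nephrectomized rat 4, when Spdl1 did not pass (adjusted p = 0.0506 and 0.063). Nde1, a dynein regulator that binds CENP-F, named after its value was seen, was 1.25-fold higher and lost its call when any single rat other than nephrectomized rat 1 was left out (adjusted p 0.0565 to 0.106).

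Among spindle checkpoint genes 4 of 5 passed upward, with a median of 1.30. Ttk, Bub1 and Cdc20 were 3.98-, 2.82- and 2.46-fold higher (adjusted p 0.00108 to 0.00166 by limma), and Bub3 had a log2 difference of 0.01 (SE 0.09). In the chromosomal passenger complex, the kinase complex of the inner centromere, with the shugoshins, 3 of 5 passed upward and the median was 1.12. Birc5 and Cdca8 were 2.83- and 2.02-fold higher, and the kinase subunit Aurkb, well above background in 4 of 4 nephrectomized and 1 of 4 sham rats, was 3.98-fold higher, or 2.96-fold with the sham values raised to the detection limit. Incenp had a log2 difference of 0.37 (adjusted p = 0.0733, or 0.0198 without nephrectomized rat 2) and Sgo2, a protector of centromeric cohesion, 1.12 with a wide error (SE 0.81, adjusted p = 0.526).

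Cohesin and separase genes split within the list. Pttg1, which encodes securin, and Espl1, which encodes the separase it inhibits, were 3.22- and 2.76-fold higher (adjusted p = 0.00108 and 0.00901), while the cohesin subunits did not pass, among them Stag2 at -0.27 (adjusted p = 0.107), and the median was 0.11. Of the Fanconi core complex genes, partners of CENP-S in repair, 0 of 3 measured passed (Fancc 0.66, Faap24 0.10 and Fance -0.02, adjusted p 0.464 to 0.932, unadjusted p 0.15 to 0.815). Of the MuvB, B-Myb, FoxM1 and pocket protein genes, which act on CHR promoters, 2 of 8 passed upward. Mybl2, which encodes B-Myb, was 2.88-fold higher on its brighter probe (adjusted p = 0.00226), whereas a second probe, well above background in 4 of 4 nephrectomized and 2 of 4 sham rats, had a log2 difference of 0.52 (SE 0.29, adjusted p = 0.42 when every probe was fitted). Foxm1 was 2.11-fold higher (adjusted p = 0.0016), and Tfdp1 had a log2 difference of 0.18 (adjusted p = 0.333). The same CHR words were present in 13 of 17 promoter windows of the list genes that passed and in 7 of 22 windows of those that did not. CCAAT was present in 12 of 17 and 13 of 22 of these windows, and the E2F words in 0 of 17 and 4 of 22. The lists were chosen with earlier results of these data known, and a link between these words and the differences was not tested.

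**Figure D4:**
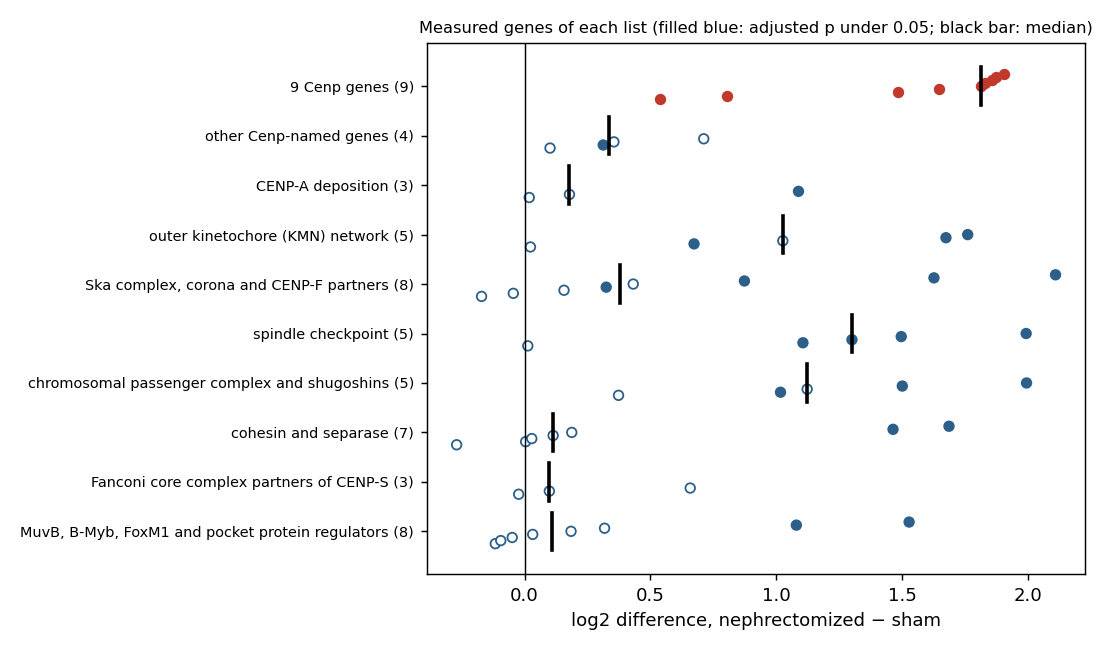
Log2 difference (x axis, nephrectomized minus sham) of each measured gene, with the 9 Cenp genes (red) above the 9 lists (blue); the number measured is in brackets, black bars are medians, and filled blue points passed an adjusted p of 0.05. The median of the Cenp genes is 1.81, and the highest list median is 1.30 for the spindle checkpoint. The Cenp median was 1.47 with sham values raised to the detection limit and 0.80 with the other background correction described below. Because the Cenp genes were chosen with this contrast known, nothing is read from their place beside the lists.

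The order of the rats within a group was also compared across the Cenp genes. Nephrectomized rat 3 had the highest level of its group in 7 of 9 genes and rat 4 in 2, while rats 1 and 2 had the lowest in 4 and 5. In both groups rats 1 and 2 were on slide 1 and rats 3 and 4 on slide 2, so this order cannot be told apart from slide. The sham counts were more mixed and leaned the other way by slide. Sham rats 1, 2, 3 and 4 had the highest level of their group in 4, 3, 1 and 1 genes and the lowest in 2, 1, 4 and 2. Over the 8 arrays the 36 pairs of members correlated at 0.88 to 0.99, which mostly repeats the group difference. With each group's mean subtracted, the correlations ran from -0.37 to 0.89 with a median of 0.45, and 31 of 36 were positive. These are descriptions over 8 arrays that share 2 slides, and slide was not subtracted. Among the 5 of 9873 other genes with a symbol whose levels over the 8 arrays followed the Cenp mean most closely were Ska1 (r = 0.997), Mms22l, a protein of replication fork repair (0.997), the mitotic cyclin Ccnb1 (0.996) and Dctpp1, a nucleotide pyrophosphatase (0.996). Among the 5 closest within groups were Ccnb1 (0.972), Ect2, an exchange factor of cytokinesis (0.964), Ska1 (0.963) and Nuf2 (0.951).

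Each slide held 2 rats of each group, so the difference can be read on either slide. The median of the Cenp genes was 1.49 on slide 1 and 2.01 on slide 2, and each of the 9 was positive on both and larger on slide 2. Cenpf differed most, at 1.08 on slide 1 and 2.21 on slide 2, and Cenpn was at 0.44 and 0.63. In a limma fit with an interaction of slide and group, which was added after these values were seen, 0 of the 9 passed (adjusted p = 1 for each; 4 of 9 at an unadjusted p under 0.05), as did 0 of 19795 genes (547 unadjusted). Without sham rat 1, the median was 1.80 and 9 of 9 genes passed.

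The size of the differences changed with the background correction and the constant added with it. Normexp, a model-based correction, was run here on median spot intensities, and a constant of 50 (the offset) was added to every intensity. Adding a constant shrinks the ratio of a dim probe most, so the parts of the correction and the constant cannot be told apart. All 9 remained positive and the median was 0.80 in place of 1.81. Cenpa, Cenpi, Cenpm and Cenpu, which were not well above background on at least 2 sham arrays, kept 33.9 to 46.9% of their log2 difference. Cenpf, Cenpn, Cenps, Cenpt and Cenpw, well above background on all 8 arrays, kept 69 to 96.2%. Cenpt and Cenpw then had the largest ratios, 2.96-fold each, and Cenps, at 1.71-fold, lay level with Cenpa (1.74-fold) and Cenpu (1.7-fold). The contrast in size between Cenps and its partners Cenpt and Cenpw was therefore present under both corrections, whereas that between Cenps and Cenpa or Cenpu was not. The loss of the latter cannot be told apart from the effect of the added constant on dim probes.

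**Figure D5:**
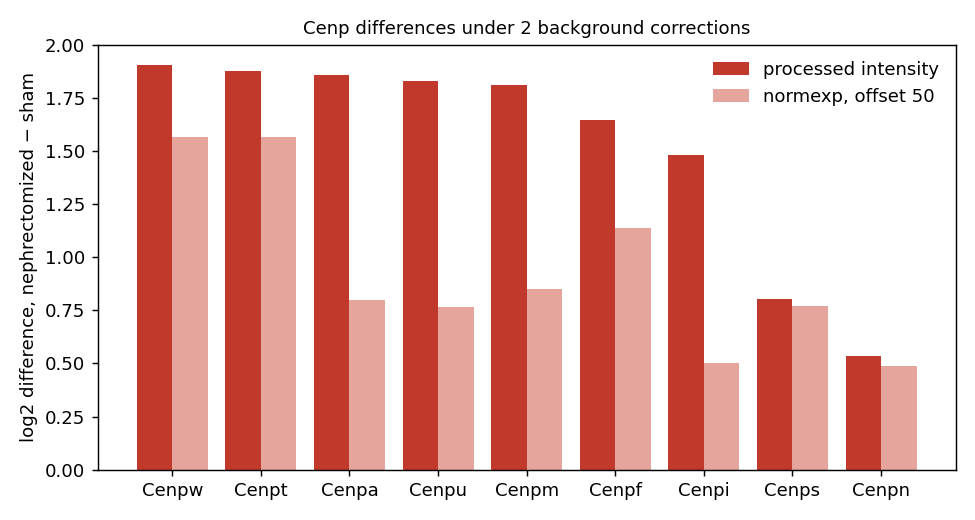
Log2 difference (y axis, nephrectomized minus sham) of each Cenp gene from the processed intensity (dark bars) and after normexp correction with an added constant of 50 (light bars). The pairs differ most for Cenpa, Cenpi, Cenpm and Cenpu and least for Cenps and Cenpn.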

How the data were processed

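Per the labels' protocols, total RNA of 8 kidneys (RNeasy Mini Kit) was Cy3-labelled (Low Input Quick Amp) and each sample was read on a 1-colour Agilent array of its own. The authors deposited spot intensity values from Feature Extraction 10.5.1.1, background-subtracted and detrended within the array and not scaled between arrays, per the file headers. The authors' deposited table of log2 values for 30448 rows matched the values computed here, centred per probe, within 0.01 for nearly all values (largest gap 0.489) and was an alternative.

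Here, log2 processed intensity was averaged over spots without outlier flags, minus each array's 75th percentile. Kept were probes that stood well above background throughout a group (23982 of 41012). Probes were named through RefSeq accessions and the GRCr8 gene table (18713 probes). The files' build is rn4, so no probe coordinates are given, and the coordinates of the promoter windows are those of GRCr8. The brightest probe stood for a gene. The test was limma (version 3.58.1, R 4.3.3) with Benjamini-Hochberg adjustment over 19865 genes, threshold 0.05; the script was tested on simulated data. Intervals cover 95%. A bound sets the nephrectomized mean against the sham mean after raising each sham value to at least the lowest value well above background on its array. The members, lists and tests were chosen with earlier results of these data known. Named are all members and their probes, the other Cenp-named genes and the 3 smallest p-values per list. List genes that did not pass could be named where a list had at most 3 of them. Also named are genes from the 5 most correlated with the member mean by each of 2 measures. The 22 alternatives concern scaling, background, filter, probes, variance model, blocks, slides and single rats. Some items that these rules name are not reported here.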

Additional observations from a re-analysis of the deposited data

Results flagged for a closer look

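Of 122 groups of 4 values (the 13 Cenp probes and the 48 list genes, in either group), 8 held a rat whose distance from its nearest neighbour was over 0.829 of the group's range, where chance gives about 1 in 20. Among the Cenp probes this was the third probe of Cenpw, at -2.64 in sham rat 3 against -2.12 to -2.03 in the other sham rats, on the log2 scale used throughout. Sham rat 3 also lay apart for Cdc20, at 0.09 against 0.36 to 0.39, and for Rad21, at 2.02 against 1.91 to 1.92. Dsn1 was at -2.74 in sham rat 2 against -4.05 to -3.91 in the others. Fancc was at -2.14 in sham rat 4 against -0.25 to -0.13, and Fance at 0.66 in sham rat 1 against 0.39 to 0.44. In the nephrectomized group, Ndel1 was at 4.80 in rat 3 against 4.61 to 4.64, and Zw10 at -2.86 in rat 1 against -2.55 to -2.48.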

How the results depend on the processing

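Each of the 9 Cenp differences stayed positive under all 22 alternatives in which the gene was fitted. The median log2 difference, 1.81, was 0.80 with normexp, 1.65 with the filter on all 8 arrays (5 of the 9 genes left), 1.49 within slide 1, 2.01 within slide 2, 1.47 with the sham values raised to the detection limit (added after the values were seen) and 1.65 to 1.86 when any single rat was left out. The number of Cenp genes passing, 9, was 5 of 5 with the filter on all 8 arrays, 6 within slide 2 and 0 within slide 1 (9 with unadjusted p under 0.05), and was 9 without any single rat. The number of list genes passing, 20, was 0 within slide 1 (21 unadjusted) and 17 to 19 without any single rat. Of all genes, 714 passed; 282 did without the filter on dim probes, 2157 with array weights, 0 within slide 1 (1632 unadjusted), 141 within slide 2, and 341 to 720 without any single rat (396, 341 and 427 without sham rat 2, 3 and 4, and 457 and 342 without nephrectomized rat 2 and 4). With the replicate number as a block 296 genes passed, with 8 of 9 Cenp genes (Cenpf did not, adjusted p = 0.069 by limma) and 17 list genes. The labels do not say whether the numbers pair the rats. Deviations of same-numbered rats correlated at 0.103, 0.0112, 0.101 and -0.0176, which cannot settle it. The causes were not tested, apart from fewer genes or rats fitted.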
